A study of Mus musculus with 10 samples.

Results

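The genes described are 10 genes commonly used to mark visceral endoderm, namely Afp, Ttr, Apoa1, Apoa2, Apob, Hnf4a, Amn, Cubn, Lrp2 and Dab2. They were taken by symbol from a table of read counts for 21868 mouse genes, and all 10 were in it. Visceral endoderm is the epithelium that surrounds the early embryo and lines the yolk sac. It takes up maternal nutrients through large endocytic receptors on its outer face and secretes carrier proteins and lipoproteins before the liver forms. It is also a neighbour of the yolk sac mesoderm in which the earliest blood cells arise, so it is a cell type that an embryoid body can hold beside the sorted progenitors.

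The cells came from mouse embryonic stem (ES) cells that were either Ldb1+/+ (WT) or Ldb1-/- (KO), grown without leukaemia inhibitory factor as embryoid bodies, the aggregates in which ES cells differentiate. They were sorted for Flk1, the receptor that is encoded by Kdr and marks common progenitors of blood and endothelium. RNA was sequenced from 4 libraries per genotype. Ldb1 encodes an adaptor protein of transcription factor complexes, and both of its alleles were lost in KO. The day of the embryoid bodies for RNA, the number of ES cell clones and the structure of the knockout allele are not stated, so Ldb1 loss and any other difference between the WT and KO ES cells cannot be told apart.

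Total counts were 11258493 to 13483294 per library. Within each genotype, counts of libraries 1 and 2 agreed nearly within sampling noise, and so did counts of 3 and 4 (mean per-gene chi-square of 1.065 to 1.10, where 1 is noise, against 12.8 to 28.5 for the other pairs within a genotype). Each such pair was summed, the first pair being called sample A and the other sample B (n = 2 per genotype), with totals of 22674679 to 26775787. The labels do not say whether A and B were separate cultures, so the p-values measure only the spread between these samples. Ldb1 itself, in counts per 1000000 (CPM), stood at 105 (WT A), 113 (WT B), 96.1 (KO A) and 80.1 (KO B), which did not pass the test (edgeR adjusted p = 0.410). If the allele lacks only some exons, reads of the others tell nothing of the genotype. Kdr, the marker of the sort, was present at 439.5, 605, 236 and 78.6 CPM in the same order.

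Several of the 10 genes were close to the limit of detection in these cells, and 3 had a mean of at most 1 CPM. Afp, Ttr, Apoa1 and Apoa2, which are among the most abundant messages of visceral endoderm, had 105, 53, 78 and 12 reads in all 8 libraries together. Only Lrp2, Dab2 and, in WT sample A, Cubn were above 11 CPM in any sample. The set is therefore not treated as the signature of a cell type here, and the genes are described one by one. The RNA is from bulk cells, so few cells with a high level and many cells with a low level cannot be told apart.

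Levels were compared between genes per length of transcript, as reads per kilobase and per 1000000 reads (RPKM), with the length that the authors deposited. Lrp2 was the highest at 14.6 (WT A), 16.7 (WT B), 34.2 (KO A) and 27.4 RPKM (KO B). Its mean lay above that of 81.7% of the 21868 genes. Dab2 followed at 6.80 to 13.5 RPKM over the 4 samples, above 66.0% of genes, and lay below the lowest Lrp2 value in every sample. Cubn was at 5.06 RPKM in WT sample A and 0.410 to 0.511 RPKM in the other 3 samples. The remaining 7 genes were at 0.133 to 1.74 RPKM in every sample, above 20.3% (Apoa2) to 32.6% (Apoa1) of genes by their means, and each overlapped over the samples with its neighbours in that order.

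**Figure D1:**
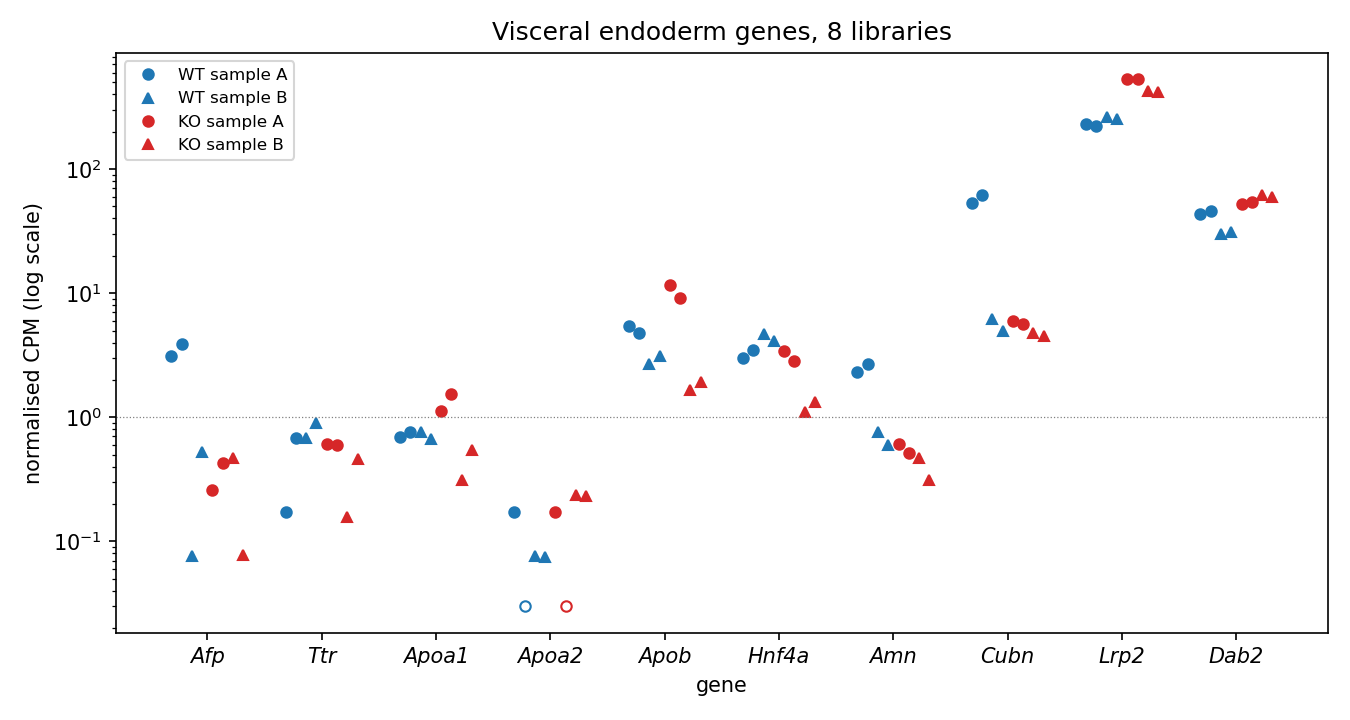
Normalised level of each of the 10 genes in CPM on a log scale, with 1 point per library (circles for libraries 1 and 2, sample A; triangles for libraries 3 and 4, sample B; blue for WT, red for KO). Open circles at the foot of the plot are libraries with 0 reads, and the dotted line is at 1 CPM. Cubn, Amn and Afp are high in the 2 libraries of WT sample A, and Lrp2 is higher in both KO samples than in both WT samples.

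Of the 10 genes, 8 passed the filter on low counts (Afp and Apoa2 did not) and 0 passed the edgeR test of KO against WT at an adjusted p of 0.05. Of all 16785 genes tested, 31 passed, which is 0.185%. At an unadjusted edgeR p under 0.05 there were 2 of the 8, Lrp2 and Dab2, both higher in KO. Of all genes tested, 7.61% were higher and 7.86% lower at that p. DESeq2 called Lrp2 alone, against 7.33% of all genes, and limma-voom called 0 of the 8, against 0.0179% of all genes. The 8 log2 fold changes had 4 values below 0 and 4 above, with a median of -0.07 beside -0.01 over all genes tested.

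The endocytic genes are described in the order receptor, partner and adaptor. Cubilin, encoded by Cubn, is a very large receptor with no membrane anchor of its own. Amnionless, encoded by Amn, anchors it and brings it to the cell surface. The pair binds intrinsic factor with vitamin B12 in the intestine and takes up proteins in visceral endoderm and kidney.

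Cubn was high in WT sample A and in no other sample. WT libraries 1 and 2 held 617 and 726 Cubn reads, and WT libraries 3 and 4 held 82 and 66. KO libraries 1 to 4 held 68, 66, 61 and 58. After scaling, this was 57.3 (WT A), 5.59 (WT B), 5.79 (KO A) and 4.64 CPM (KO B). The WT sample B level lay between the levels of the KO samples, so the genotypes overlapped.

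Within WT, sample A had 10.3 times the depth-scaled Cubn reads of sample B (exact binomial 95% interval 8.65 to 12.2, which covers counting error only). Within KO the same ratio was 1.25 (0.967 to 1.61). There is 1 sample on each side of these ratios, and they have no replicate check. The log2 fold change of KO against WT was -2.59 (SE 1.16, edgeR adjusted p = 0.412). It was -0.11 without WT sample A and -3.45 without WT sample B, so the size of the difference rested on WT sample A.

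Amn was at low counts with the same sample highest. WT libraries 1 and 2 held 27 and 32 Amn reads, WT libraries 3 and 4 held 10 and 8, and KO libraries 1 to 4 held 7, 6, 6 and 4. The samples stood at 2.52 (WT A), 0.679 (WT B), 0.562 (KO A) and 0.390 CPM (KO B). Both KO samples were below both WT samples, a separation in one direction or the other that 45.6% of all genes tested had. WT sample A held 3.71 times the depth-scaled reads of WT sample B (95% counting interval 2.16 to 6.68). The log2 fold change of KO against WT was -1.73 (SE 0.73, edgeR adjusted p = 0.349), and it was -0.52 without WT sample A.

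Afp, which encodes alpha-fetoprotein, the albumin-like carrier protein of fetal serum, had the same high sample. WT libraries 1 and 2 held 36 and 46 Afp reads, whereas the other 6 libraries held 1 to 7 each. WT sample A stood at 3.50 CPM and the other samples at 0.302 (WT B), 0.346 (KO A) and 0.273 CPM (KO B). The ratio of WT sample A to WT sample B was 11.6 (95% counting interval 5.62 to 27.8), and the reads of WT sample B and KO sample B differed by a ratio of 1.11 (0.350 to 3.58). Afp did not pass the filter on low counts. With no filter its log2 fold change was -2.58 (SE 1.28, edgeR adjusted p = 0.549).

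Cubn, Amn and Afp were the 3 of the 10 genes that were highest in WT sample A, a share near the 28.6% of all genes tested that were highest there. Cubn and Amn were at least 2-fold higher there than in each other sample, which held for 2.04% of all genes tested. Without WT sample B, the edgeR test called Cubn, Amn and Lrp2, where 9.73% of all genes passed. Afp passed the filter in that fit only through the sample in which it was high, so its value there is no test. Without WT sample A it called Lrp2 and Dab2, where 8.93% passed. In these 2 fits the remaining WT sample is assumed to vary like the KO samples.

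WT sample A also stood apart in other genes. All 8 genes of the pluripotency list were highest in it (against the same 28.6% of all genes tested), with a summed level of 1426 CPM against 472 (WT B), 762 (KO A) and 875 CPM (KO B). Of the 12 parietal endoderm genes, by contrast, 2 were highest in it, against the same 28.6% of all genes tested. The laminin gene Lama1, 1 of these 2, stood at 97.1 CPM in WT sample A and 28.3, 16.5 and 20.6 CPM in WT B, KO A and KO B. The part of these differences in the Cubn, Amn and Afp values was not tested.

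The sequences upstream of these 3 genes are shown because the genes share a high sample. Each is the 250 bases before the annotated transcript start, from RefSeq on build GRCm38.p6, 5′ to 3′ on the strand of the gene. They lie at chr2:13491877-13492126 on the minus strand for Cubn, chr12:111270846-111271095 on the plus strand for Amn and chr5:90490464-90490713 on the plus strand for Afp. Capitals mark every match to 5 motifs of endoderm transcription factors, searched on both strands.
Cubn: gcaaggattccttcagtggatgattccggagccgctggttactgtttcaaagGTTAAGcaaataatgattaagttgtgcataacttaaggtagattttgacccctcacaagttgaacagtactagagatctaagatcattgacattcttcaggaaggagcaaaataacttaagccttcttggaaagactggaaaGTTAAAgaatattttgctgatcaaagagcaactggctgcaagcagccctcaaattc
Amn: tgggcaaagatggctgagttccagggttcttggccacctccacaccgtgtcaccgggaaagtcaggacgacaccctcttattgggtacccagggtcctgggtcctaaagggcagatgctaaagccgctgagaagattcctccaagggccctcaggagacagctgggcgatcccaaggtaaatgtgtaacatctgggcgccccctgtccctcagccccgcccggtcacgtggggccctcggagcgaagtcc
Afp: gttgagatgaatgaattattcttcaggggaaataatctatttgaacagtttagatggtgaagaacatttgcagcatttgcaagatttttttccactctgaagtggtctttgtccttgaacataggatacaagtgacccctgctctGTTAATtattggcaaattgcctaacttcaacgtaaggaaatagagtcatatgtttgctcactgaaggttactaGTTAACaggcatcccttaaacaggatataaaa
The motifs were GTTAAN for HNF1, TGTTTAC for FOXA, AGGTCA for nuclear receptors, CAAAGTCCA for HNF4 and AGATAA for GATA factors, and no matches overlapped in the sequences printed. Afp held GTTAAT and GTTAAC, starting 105 and 32 bases before the start site. Cubn held GTTAAG and GTTAAA, starting 198 and 56 bases before it. Amn held none of the 5. Genes that were not highest in WT sample A held matches to GTTAAN too, with 3 in the 2 entries of Hnf4a and 3 in the 2 entries of Dab2, and single matches to other motifs were in Hnf4a (GATA) and Apoa2 (FOXA and nuclear receptor). The HNF1 motif was in 21.6% of the 32851 upstream sequences of the same length, that of FOXA in 3.17%, of nuclear receptors in 14%, of HNF4 in 0.384% and of GATA factors in 9.99%. A match is a description of letters in this window and not a site. Of the 10 genes, 9 had an entry in the sequence table, and Ttr had none.

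**Figure D2:**
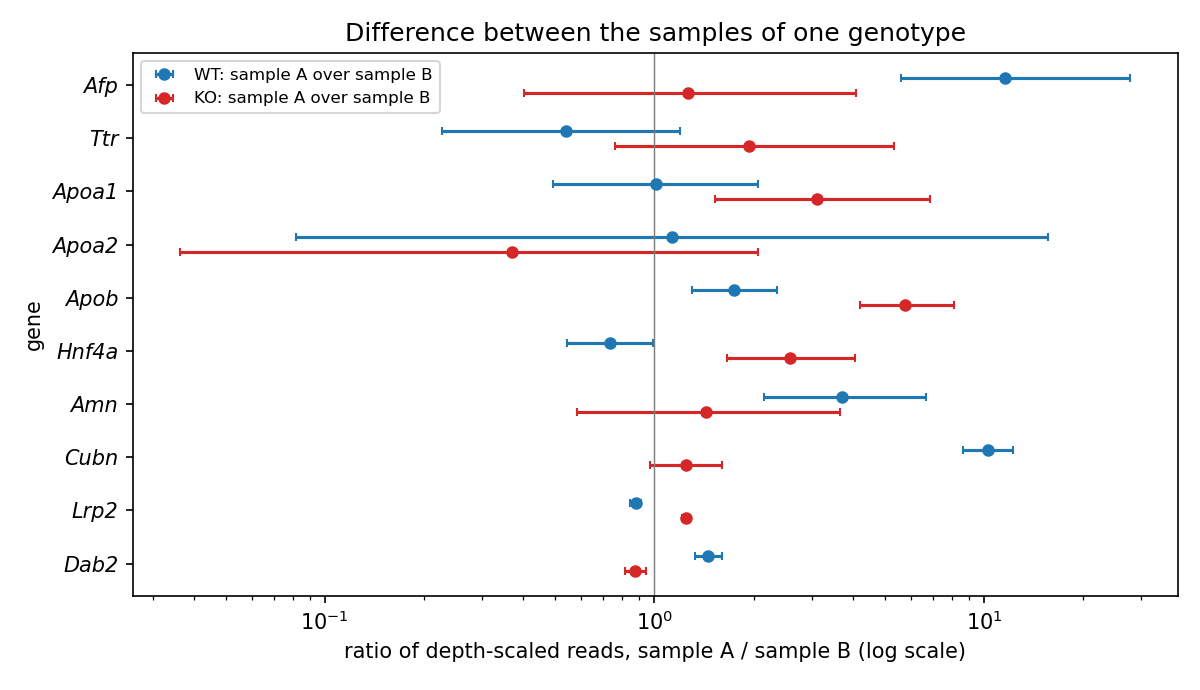
Ratio of depth-scaled reads in sample A to those in sample B, on a log scale, for each gene within WT (blue) and within KO (red), with exact binomial 95% intervals that cover counting error only. Cubn at 10.3 and Afp at 11.6 in WT lie farthest to the right, while in KO the largest ratio is that of Apob at 5.78.

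Megalin, encoded by Lrp2, is an endocytic receptor of the low-density lipoprotein receptor family. It carries cubilin and its cargo into the cell, and is also made by neuroepithelium. Lrp2 had 2684, 2612, 3455 and 3377 reads in WT libraries 1 to 4 and 6075, 6151, 5435 and 5415 reads in KO libraries 1 to 4. The samples stood at 226 (WT A), 258 (WT B), 528 (KO A) and 423 CPM (KO B), so both KO samples were above both WT samples. Over all genes tested, the samples of the genotypes were apart in one direction or the other for 45.6%, and for 4 of the 8 members tested (Lrp2, Dab2, Hnf4a and Amn).

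The mean of Lrp2 was 242 ± 22.5 CPM in WT and 476 ± 74.1 CPM in KO (SD, n = 2 per genotype). The log2 fold change was 0.98 (SE 0.16), with an unadjusted p of 0.00126 and an edgeR adjusted p of 0.105 over all genes. It therefore did not pass by edgeR, whereas DESeq2 gave a log2 fold change of 0.97 with an adjusted p of 4.56e-05. Leaving out each sample in turn gave log2 fold changes of 0.81 to 1.13. Cubn and its partner Lrp2 were thus not parallel, since Lrp2 was lowest in WT sample A, where Cubn was highest.

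Dab2 encodes a cytosolic adaptor that binds the tail of megalin and links it to clathrin. It is also made by parietal endoderm and other cell types. Dab2 had 504, 541, 397 and 413 reads in WT libraries 1 to 4 and 604, 627, 786 and 769 reads in KO libraries 1 to 4. The samples stood at 44.6 (WT A), 30.6 (WT B), 53.2 (KO A) and 60.7 CPM (KO B).

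Both KO samples of Dab2 were above both WT samples. The log2 fold change was 0.60 (SE 0.22, unadjusted p = 0.0339, edgeR adjusted p = 0.267; DESeq2 adjusted p = 0.169). It was 0.89 without WT sample A and 0.36 without WT sample B. Genes of epithelial cells were also higher in KO, as given below, and their part in the Lrp2 and Dab2 values was not tested.

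Hnf4a encodes a nuclear receptor that is required in visceral endoderm and drives genes of lipoproteins and serum carriers. It had 35, 41, 62 and 55 reads in WT libraries 1 to 4 and 39, 33, 14 and 17 reads in KO libraries 1 to 4. The samples stood at 3.24 (WT A), 4.42 (WT B), 3.11 (KO A) and 1.21 CPM (KO B). The KO samples were below the WT samples, KO sample A only just, and the libraries overlapped.

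The log2 fold change of Hnf4a was -0.83 (SE 0.51, edgeR adjusted p = 0.523). Leaving out 1 sample gave -1.05 (WT A), -0.59 (WT B), -1.65 (KO A) and -0.30 (KO B). The antisense gene Hnf4aos overlaps Hnf4a in the RefSeq annotation. It was counted as a gene of its own, but strand use in counting is not given. How reads of the shared stretch were assigned is therefore unknown. RefSeq genes also overlap Cubn (Gm13270 and LOC115489436), Amn (Gm51960), Dab2 (Gm16311 and Gm18888) and Ttr (Gm16090). Their part in the reads of these members was not tested.

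Apob encodes the structural protein of very-low-density and low-density lipoproteins. It had 63, 56, 35 and 42 reads in WT libraries 1 to 4 and 133, 107, 21 and 25 reads in KO libraries 1 to 4. The samples stood at 5.08 (WT A), 2.91 (WT B), 10.4 (KO A) and 1.80 CPM (KO B), so KO held both the highest and the lowest sample.

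KO sample A had 5.78 times the depth-scaled Apob reads of KO sample B (95% counting interval 4.20 to 8.10), against 1.75 (1.30 to 2.36) in WT. The log2 fold change of KO against WT was 0.61 (SE 0.88, edgeR adjusted p = 0.840). Its sign turned to -1.14 without KO sample A. Apob, Hnf4a and Apoa1 were the 3 of the 8 tested genes that were at least 2-fold lower in KO sample B than in KO sample A, against 2.13% of all genes tested. In WT, Cubn and Amn were at least 2-fold lower in sample B, against 5.73% of all genes tested. None of the 8 was at least 2-fold higher in sample B, which 3.68% of all genes were in WT and 1.39% in KO.

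The other apolipoprotein and carrier genes were near the floor. Apoa1, the main protein of high-density lipoprotein, had 8, 9, 10 and 9 reads in WT libraries 1 to 4 and 13, 18, 4 and 7 reads in KO libraries 1 to 4. This was 0.726 (WT A), 0.717 (WT B), 1.34 (KO A) and 0.429 CPM (KO B), and the genotypes overlapped (log2 fold change 0.28, SE 0.60, edgeR adjusted p = 0.899). As with Apob, KO sample A was the highest, at 3.12 times KO sample B (95% counting interval 1.53 to 6.88). The sign turned to -0.74 without KO sample A.

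Ttr, which encodes transthyretin, the carrier of thyroid hormone and of retinol-binding protein, had 2, 8, 9 and 12 reads in WT libraries 1 to 4 and 7, 7, 2 and 6 reads in KO libraries 1 to 4. The samples overlapped at 0.427 (WT A), 0.793 (WT B), 0.605 (KO A) and 0.312 CPM (KO B) (log2 fold change -0.43, SE 0.57, edgeR adjusted p = 0.817). The sign of Ttr turned to 0.09 without WT sample B.

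Apoa2, a second protein of high-density lipoprotein, had 4 reads in all WT libraries together and 8 in all KO libraries. The depth-scaled ratio of KO to WT was 2.05 with a 95% counting interval of 0.549 to 9.29, and Apoa2 was not tested. The gene Tomm40l, which was counted as a gene of its own, overlaps Apoa2 in the RefSeq annotation, so even these reads are uncertain. The 5 secreted products Afp, Ttr, Apoa1, Apoa2 and Apob together summed to 9.82 (WT A), 4.79 (WT B), 12.7 (KO A) and 3.04 CPM (KO B).

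**Figure D3:**
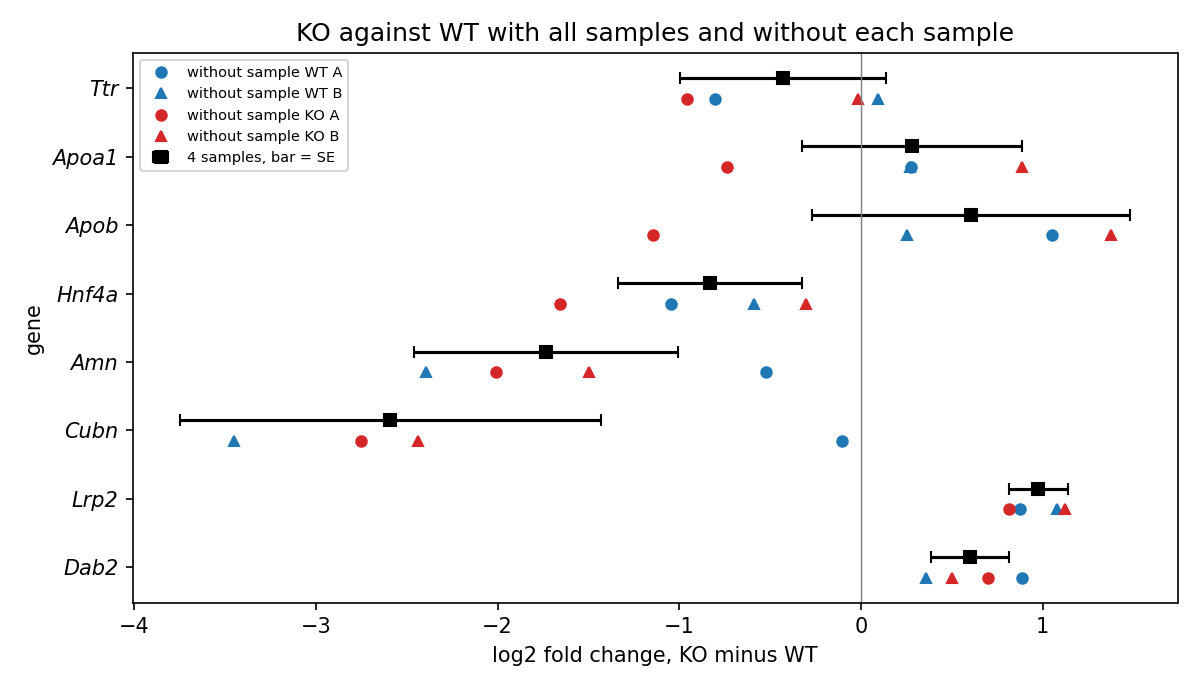
Log2 fold change of KO against WT for the 8 genes tested, with black squares for all 4 samples (bars are 1 SE) and coloured points for fits without WT sample A, WT sample B, KO sample A or KO sample B. Cubn moves from -2.59 to -0.11 without WT sample A and Apob from 0.61 to -1.14 without KO sample A, while Lrp2 stays between 0.81 and 1.13.

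Genes whose levels followed these patterns most closely were ranked by the root mean square distance between log2 CPM profiles centred on their means over the 4 samples, among 11935 genes with at least 5 CPM. With 4 samples this is a description alone. For Lrp2 the closest were Pla2r1 (distance 0.03), Skida1 (0.03) and Plxnb1 (0.05), with Plxnb1 at 52.4 (WT A), 64.5 (WT B), 122 (KO A) and 103 CPM (KO B). For Hnf4a they were Aff3 (0.12), Fbn1 (0.12) and Csgalnact1 (0.13), and Fbn1, which encodes fibrillin-1, stood at 90.3 (WT A), 103 (WT B), 85.5 (KO A) and 37.0 CPM (KO B).

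For Apob the closest were Sparcl1 (0.22), the endothelial cadherin gene Cdh5 (0.36) and Hmcn1 (0.41). Cdh5 stood at 151 (WT A), 84.3 (WT B), 181 (KO A) and 62.8 CPM (KO B). For Cubn, added after its values were seen, they were the predicted genes Gm15114 (0.18), Gm15107 (0.21) and Gm10439 (0.22), all on chromosome X. Gm15107 stood at 19.4 CPM in WT sample A and 1.55, 2.25 and 1.21 CPM in WT B, KO A and KO B.

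Other genes of endoderm and of neighbouring cell types were read from 10 lists with 119 genes in the table, of which 106 were tested. By edgeR 0 of them passed, against 0.185% of all genes tested. At an unadjusted p under 0.05, 20 were lower and 13 higher in KO, DESeq2 called 14 lower and 10 higher, and limma-voom called 0. Over all genes tested, the unadjusted shares were 7.86% lower and 7.61% higher. In either direction, DESeq2 called 7.33% and limma-voom 0.0179%. The 20 lower genes include some that passed the low-count filter only through the WT samples. Pyy (49 reads in WT, 6 in KO) and Pla2g12b (26 and 9), named after their values were seen, are examples. The count of 20 is therefore a description and not a test. Differences below are given as values of genes that did not pass by edgeR.

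Further secreted genes of visceral endoderm were mostly at low counts, with 12 of 19 genes in the table under 1 CPM and 8 tested. Alb, the gene of albumin, had 1 read in all 8 libraries and the apolipoprotein gene Apoc3 had 1, a level at which neither can be called detected. Both were named after their values were seen. Apoe, a lipoprotein gene that many cell types express, stood at 399 to 475 CPM and made up most of the list's sum of 476 to 547 CPM (log2 fold change 0.12, SE 0.13). Trf, the transferrin gene, stood at -0.52 (SE 0.32) and Apoc1 at 0.57 (SE 0.32), and the median of the list was -0.39.

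The 16 endocytosis and lysosomal genes were all tested, with a median log2 fold change of -0.06. The clathrin heavy chain gene Cltc stood at 1008 (WT A), 1036 (WT B), 852 (KO A) and 847 CPM (KO B) (log2 fold change -0.27, SE 0.12), and the lysosomal protease gene Ctsl at 0.29 (SE 0.15). Gipc1, whose product binds the tail of megalin, stood at 0.52 (SE 0.15, unadjusted p = 0.0166). Vldlr, a receptor of the same family as Lrp2, was high in WT sample B at 54.4 CPM and at 9.22 to 10.1 CPM in the other samples.

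Endoderm transcription factors were all measured, with 14 of 14 tested and a median log2 fold change of -1.17. Of these, 10 were below 0, against 51.3% of all genes tested. WT sample A was the highest for 4 of the 14, against 28.6% of all genes tested. WT sample B was the highest for 7, and the share of all genes highest there was not computed. Eomes, a T-box factor gene of mesoderm and endoderm, stood at 117 CPM in WT sample B and at 9.65, 27.8 and 8.94 CPM in WT A, KO A and KO B. Lhx1, a LIM-homeodomain gene, stood at 89.8 CPM there and at 19.8, 20.3 and 5.39 CPM in the others (log2 fold change -2.10, SE 1.01). Nr2f2, a nuclear receptor gene, was higher in both KO samples (1.06, SE 0.23, unadjusted p = 0.00453), and Klf6 stood at 0.24 (SE 0.19).

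Surface and signalling genes of visceral endoderm had a median log2 fold change of -0.05 over 12 tested genes. The tight-junction gene Cldn6 stood at 97.5 (WT A), 102 (WT B), 257 (KO A) and 365 CPM (KO B) (1.64, SE 0.20, edgeR adjusted p = 0.0689). The tetraspanin gene Tspan8 stood at 12.4 (WT A), 10.2 (WT B), 2.94 (KO A) and 1.91 CPM (KO B) (-2.22, SE 0.32, edgeR adjusted p = 0.0867). DESeq2 called both (adjusted p of 6.2e-11 and 2.48e-06). Amot, a junction-associated gene, was high in WT sample B at 657 CPM, against 94.0 to 238 CPM in the other samples.

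Among 8 anterior visceral endoderm genes the median was -1.13. Otx2, a homeobox gene also of the epiblast, stood at 0.05 (SE 0.20), the Wnt inhibitor genes Sfrp1 and Dkk1 at -1.13 (SE 0.25) and -1.71 (SE 1.26), and the Nodal inhibitor gene Lefty1 at 0.49 (SE 1.05). Among 12 parietal endoderm genes the median was 0.22, with Sparc at 0.34 (SE 0.25), Vim at -0.41 (SE 0.13), Plat at 1.66 (SE 0.52) and Lama1 at -1.76 (SE 0.64). Among 9 tested definitive endoderm genes the median was -0.22, with Krt19 at 0.35 (SE 0.35), Trh at -0.22 (SE 0.56) and Cyp26a1 at -2.60 (SE 1.07).

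Genes of epithelial cells were higher in KO by their values. All 8 were above 0 with a median log2 fold change of 1.12, while 51.3% of all genes tested were below 0. At an unadjusted edgeR p under 0.05, 7 were higher, against 7.61% of all genes tested. The cadherin gene Cdh1 stood at 608 (WT A), 396 (WT B), 1058 (KO A) and 1097 CPM (KO B) (1.10, SE 0.22, edgeR adjusted p = 0.123). The keratin gene Krt8 (1.16, SE 0.26), the claudin gene Cldn4 (1.59, SE 0.29) and Spint2 (0.64, SE 0.25) were higher too. DESeq2 called 6 of the 8, all higher in KO, against 7.33% of all genes in either direction. The list summed to 1811 (WT A), 1786 (WT B), 3419 (KO A) and 4263 CPM (KO B), and Lrp2 and Dab2 had their higher levels in the same samples.

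Flk1 mesoderm genes were lower in KO by their values, with 10 of 11 below 0 (against 51.3% of all genes tested) and a median of -1.39. Hand1, a factor gene of extraembryonic mesoderm, was high in WT sample B at 126 CPM against 9.90, 6.87 and 6.36 CPM in WT A, KO A and KO B. Kdr stood at -1.73 (SE 0.59). Of the pluripotency genes Pou5f1 stood at 281, 81.3, 257 and 253 CPM in WT A, WT B, KO A and KO B, Nanog at -0.65 (SE 0.39) and Klf4 at -1.02 (SE 0.28). The median of the 8 was -0.54.

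**Figure D4:**
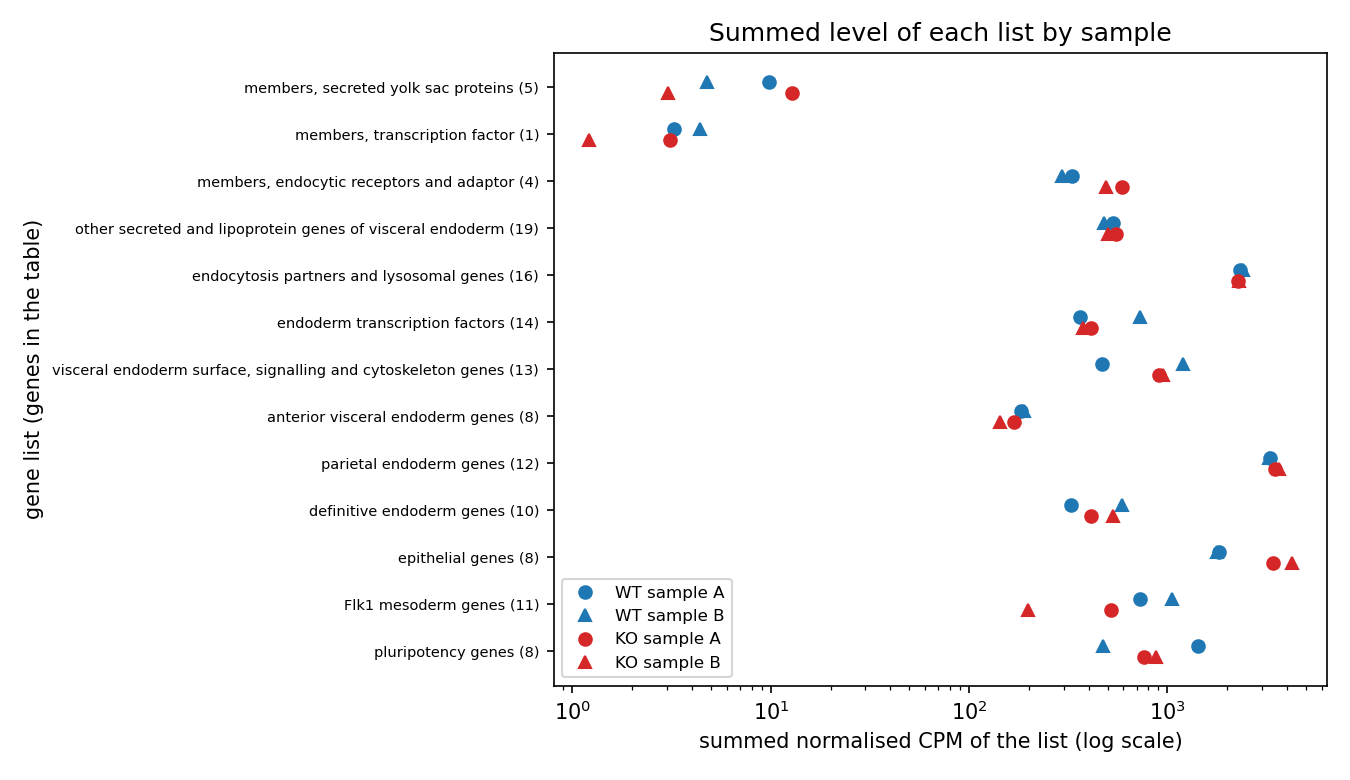
Summed level of each gene list in normalised CPM on a log scale, with 1 point per sample (circles for sample A, triangles for sample B; blue for WT, red for KO) and the number of genes in the table in brackets. The secreted genes of the 10 sum to 3.04 to 12.7 CPM and Hnf4a to 1.21 to 4.42 CPM. The parietal endoderm list sums to 3237 to 3660 CPM, and the epithelial list is higher in both KO samples. Abundant genes weigh most in a sum. Within the parietal endoderm list, Sparc is at 697 to 1229 CPM and Vim at 534 to 775 CPM, but Plat is at 5.06 to 23.8 CPM. Its sum is therefore no measure of parietal endoderm cells.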

How the data were processed

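RNA was measured in 8 libraries of Flk1-sorted mouse cells, 4 per genotype. The authors deposited raw read counts per Ensembl gene and a transcript length per gene, per the file headers. The submitters' processing notes name build mm9 and DESeq, while the aligner, counter, annotation release and strand setting are not stated there. The series' Ldb1 peak list was not used here, since no gene positions of its build were at hand. Of 21868 genes, 20362 were paired with a symbol.

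Libraries whose counts differed by a mean per-gene chi-square under 1.5, taken over genes whose 2 libraries held 20 reads or more, were summed, giving 2 samples per genotype. The low-count filter was filterByExpr and the scaling TMM. The test was the robust quasi-likelihood test of edgeR 4.0.16 in R 4.3.3, with Benjamini-Hochberg adjustment over all genes tested and a threshold of 0.05. The script was tested on simulated data. CPM are counts per 1000000 after TMM, and RPKM divide these by length. Log2 differences between samples used a prior count of 2. With 2 samples per genotype the smallest exact permutation p is 0.333, and the p-values are therefore those of the fit to the whole table. Ratios of reads carry exact binomial 95% intervals, which cover counting error only.

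The members and lists were chosen with earlier results of these data known. The 10 genes were all named. From each other list the rule named genes past the test, the 2 most abundant, and the most negative and most positive at 5 CPM or more. It also named the 3 genes most alike in pattern to Apob, Hnf4a and Lrp2. Genes outside it are marked. Fabp1, Spink3 and Rhox5 were not analysed here. Alternatives were scaling by RLE, by upper quartile or by library size, the tools DESeq2 1.42.0 and limma-voom (limma 3.58.1), other filters, an adjusted p of 0.01, a replicate block, 8 separate libraries, and leaving out each library or sample. Figures used matplotlib 3.10.9, and promoter sequences came from RefSeq (GRCm38.p6).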

Additional observations from a re-analysis of the deposited data

How the results depend on the processing

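Of the 10 genes 0 passed by edgeR with all 4 samples, and 1 passed with DESeq2 (Lrp2), against 7.33% of all genes. With 8 libraries as separate replicates, 2 of the 5 members tested passed (Lrp2 and Dab2), against 3860 of 15589 genes. That setting counts near-identical libraries as replicates. Leaving out 1 library or sample gave 0 to 4 (Cubn, Amn, Lrp2 and Afp without WT sample B, Lrp2 and Dab2 without WT sample A). Afp passed the filter in that fit only through WT sample A, where it was high, so its call is no test. The number of all genes called was 31, and it was 1159 with DESeq2, 3 with limma-voom, 151 with no filter on low counts, 5 when genes had to reach 1 CPM in 2 samples, 2 at an adjusted p of 0.01 and 3860 with 8 separate libraries. It was 0 to 1674 when 1 library or sample was left out, with 0 in the fits without KO sample A or B. At an unadjusted edgeR p under 0.05 those fits had 1704 and 1106 genes. With sample A and B as a replicate block 5 genes were called, and 0 of the 10. The replicate numbers are not stated to pair WT with KO. The differences between B and A in the 2 genotypes had a correlation of -0.08 over 16785 genes. Total counts were 23182551 (WT A) and 22674679 (KO A), against 26221496 (WT B) and 26775787 (KO B). Whether samples of the same letter shared a culture or a sequencing run was not tested. Of the other lists, 24 genes were called with DESeq2, 6 with no filter, 40 with 8 separate libraries and 0 to 39 when 1 library or sample was left out.

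The median log2 fold change of the members was -0.07. It moved to 0.58 with the stricter filter and 0.59 with 8 separate libraries, where 5 members were tested rather than 8. When 1 library or sample was left out, the median ranged from -1.14 to 0.13. Those fits tested 8 or 9 members, so the range also reflects a changed set. Afp was added in the fits without WT sample B, KO sample A or KO sample B. Signs turned for Ttr (-0.956 to 0.093 over fits leaving out 1 library or sample), Apoa1 (-0.74 to 0.89) and Apob (-1.14 to 1.38), and for none of the other 5 tested genes under any alternative. Among differences between samples, that of KO sample B minus KO sample A for Lrp2 moved from -0.32 to -0.41 with library size scaling. The same difference went from -0.313 to -0.405 for Cubn and from 0.19 to 0.097 for Dab2, so the shift was not particular to Lrp2. Afp, Ttr, Apoa1, Apoa2 and Amn each had at most 105 reads in all, and whether depth or the spread between samples limits their tests was not tested.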
